A study of Mus musculus with 12 samples.

Results

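The colon of 6 control mice was described after colitis had been induced with DSS (dextran sulfate sodium), a sugar polymer that damages the lining of the large intestine when animals drink it. The mice were chosen by the label that gives their genotype as WT, and they make up 6 of the 12 mice of the study. They were littermates of mice in which Pck1 had been deleted in the intestinal epithelium. All 12 mice received 2.5% DSS for 7 days, so no untreated colon was measured and no value here can be called a response to DSS. Whether the controls carried a Cre transgene or floxed alleles, and their strain and age, is not given in the sources used here. RNA came from colon tissue, which mixes epithelium, immune cells, connective tissue and muscle. In such tissue, fewer cells of a type and less RNA per cell cannot be told apart. Nothing in the labels states which mice shared a litter or cage, and mice are called control 1 to control 6 by the number in the labels.

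The mucosa of the colon is a single sheet of absorptive, goblet and rarer hormone-secreting cells that is renewed from stem cells in the crypts. Goblet cells secrete the mucus that keeps bacteria away from the sheet. DSS breaks this barrier, neutrophils and monocytes enter the tissue, stromal cells remodel the matrix, and surviving epithelium makes antimicrobial proteins and takes on repair programmes. Injury in this model is patchy along the colon, so pieces of tissue can differ in how much damaged surface they hold.

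Levels are given as TPM, the share of a gene among all transcripts after correction for its length. The spread of a gene is the SD over the 6 mice of log2(TPM + 1). It was read only for the 8604 genes with a mean of at least 10 TPM. Libraries held 15881625 to 19138507 counts. Of 21899 genes, 13467 reached a mean of 1 TPM and 12612 reached 1 TPM in each control. Pck1, the enzyme targeted in the littermates, stood at 24.4 to 54.6 TPM in the controls and at 1.73 to 4.65 TPM in the knockout mice, which matches the labels of all 12 libraries.

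The libraries stood apart in ways that touch the results. Genes of pancreatic acinar cells summed to 0.0340% of all TPM in control 1 and 9.15% in control 6. In control 1, levels also followed the GC content of transcripts: among the 1719 genes with the lowest GC its median deviation from the mean of the 6 mice was -0.23 on the log2 scale, and among the 1720 with the highest 0.22. The other 5 libraries lay between -0.14 and 0.11 in each of 5 such GC classes. How much GC content or acinar RNA contributes to the differences between mice described below was not tested, except where a value with the trend or the genes removed is given.

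**Figure D1:**
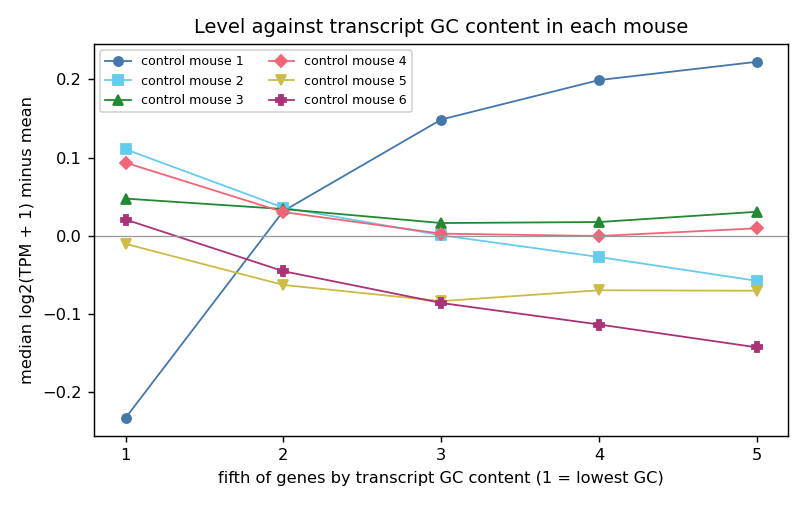
Median deviation of log2(TPM + 1) from the mean of the 6 control mice, for genes with a mean of at least 10 TPM split into 5 equal classes by the GC content of their transcripts. Points are mice; control 1 climbs from -0.23 to 0.22, and the other mice stay between -0.14 and 0.11.

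Promoters of genes with much and with little spread between mice differed in base content, and 7 are shown because they carry that contrast. Each is the 250 bases before the RefSeq start site (build GRCm38.p6), 5′ to 3′ on the gene's strand, with every CG dinucleotide in capitals and, where it lies 20 to 40 bases before the start, the motif TATAAA in capitals. The first 4 belong to genes that differed widely between mice: S100a8 (chr3:90668821-90669070, plus strand), a calcium-binding protein of neutrophils; Mmp10 (chr9:7502092-7502341, plus strand), a matrix-degrading protease; Reg3b (chr6:78370635-78370884, plus strand), an antimicrobial lectin; and Cxcl1 (chr5:90890995-90891244, plus strand), a chemokine that attracts neutrophils.
S100a8: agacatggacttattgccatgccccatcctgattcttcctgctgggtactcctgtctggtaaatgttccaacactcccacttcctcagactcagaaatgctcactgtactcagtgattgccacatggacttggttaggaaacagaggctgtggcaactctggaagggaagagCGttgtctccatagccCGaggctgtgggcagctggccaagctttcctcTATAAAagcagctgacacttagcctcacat
Mmp10: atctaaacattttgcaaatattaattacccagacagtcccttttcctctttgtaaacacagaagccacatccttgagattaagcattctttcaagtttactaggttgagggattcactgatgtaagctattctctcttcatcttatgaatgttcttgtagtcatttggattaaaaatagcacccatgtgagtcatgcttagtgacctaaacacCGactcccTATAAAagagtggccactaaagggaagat
Reg3b: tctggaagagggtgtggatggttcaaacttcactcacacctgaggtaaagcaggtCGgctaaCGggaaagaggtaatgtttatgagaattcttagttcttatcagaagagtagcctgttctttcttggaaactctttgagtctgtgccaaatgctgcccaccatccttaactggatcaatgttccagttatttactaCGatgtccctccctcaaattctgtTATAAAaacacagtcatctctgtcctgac
Cxcl1: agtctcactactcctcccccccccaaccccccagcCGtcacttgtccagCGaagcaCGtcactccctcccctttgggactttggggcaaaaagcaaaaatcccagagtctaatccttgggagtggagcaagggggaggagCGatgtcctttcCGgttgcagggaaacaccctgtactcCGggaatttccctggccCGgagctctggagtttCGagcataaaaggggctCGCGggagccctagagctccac
The other 3 belong to genes among the 20 with the least spread: Rab14 (chr2:35201121-35201370, minus strand), a GTPase of endosomal traffic; Tmco1 (chr1:167308420-167308669, plus strand), a membrane protein of the endoplasmic reticulum; and Ythdf2 (chr4:132212257-132212506, minus strand), a reader of methylated adenosine in RNA.
Rab14: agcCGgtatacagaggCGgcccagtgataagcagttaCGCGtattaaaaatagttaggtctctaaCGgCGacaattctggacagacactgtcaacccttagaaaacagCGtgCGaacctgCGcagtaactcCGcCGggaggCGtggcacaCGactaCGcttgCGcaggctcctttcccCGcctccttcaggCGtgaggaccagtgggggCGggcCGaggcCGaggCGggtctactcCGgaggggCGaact
Tmco1: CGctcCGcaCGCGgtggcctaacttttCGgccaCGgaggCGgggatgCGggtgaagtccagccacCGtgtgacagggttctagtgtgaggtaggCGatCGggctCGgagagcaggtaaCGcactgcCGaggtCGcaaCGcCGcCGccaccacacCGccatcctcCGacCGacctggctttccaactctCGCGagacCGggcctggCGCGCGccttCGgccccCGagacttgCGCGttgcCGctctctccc
Ythdf2: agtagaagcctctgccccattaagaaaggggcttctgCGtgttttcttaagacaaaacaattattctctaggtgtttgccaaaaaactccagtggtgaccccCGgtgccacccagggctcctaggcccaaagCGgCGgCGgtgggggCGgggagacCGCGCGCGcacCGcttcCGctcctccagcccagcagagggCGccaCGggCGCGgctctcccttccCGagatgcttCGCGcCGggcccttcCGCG

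S100a8, Mmp10 and Reg3b held 2, 1 and 3 CG dinucleotides in these windows, and Cxcl1 held 10. Rab14, Tmco1 and Ythdf2 held 23, 32 and 22. TATAAA began 30 bases before the start of S100a8 and 29 bases before the starts of Mmp10 and Reg3b. It was not in that stretch of the other 4. These letters describe the windows and say nothing of which factor binds there.

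The contrast held over larger groups of genes as a description. Among genes with 1 promoter entry in RefSeq, the median number of CG dinucleotides was 17 over the 5322 genes with a mean of at least 10 TPM. It was 19 over 1744 genes with an SD under 0.15 and 3 over 22 genes with an SD above 1 that were neither acinar nor antigen receptor genes. The groups overlapped, with 0 to 55 in the low-spread and 0 to 26 in the high-spread promoters. At least 10 were held by 4 of the 22. TATAAA at 20 to 40 bases before the start, searched on the gene's strand only, was found in 0.688% of the low-spread promoters, 1.82% of those at 10 TPM or more, 4 of the 22 high-spread promoters and 2.42% of all 22862 promoters of the table. Promoters of 29 variable acinar genes resembled those of the other variable genes, with a median of 2 CG dinucleotides and TATAAA in 7. With the GC trend of each library removed, the medians were 18 in the low-spread and 3 in the high-spread group, and without control 1 they were also 18 and 3.

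The most abundant transcripts were mitochondrial, epithelial and immunoglobulin. The 10 most abundant genes took 18.7% ± 1.74 (SD, n = 6) of all TPM and the 100 most abundant 37.8% ± 1.65. The 13 mitochondrially encoded genes alone took between 12.2% in control 1 and 18.5% in control 5, led by mt-Co1, a subunit of cytochrome oxidase, at a mean of 44176 TPM. Genes of ribosomal proteins took 7.48% to 9.68%.

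The leading nuclear gene was Sprr2a2, a small proline-rich protein made by stressed epithelium, at 22610 TPM on average and between 18564 and 26611 in single mice. It has near-identical copies, so how its reads were divided is uncertain: Sprr2a1 was listed at 311 to 416 TPM and Sprr2a3 at 823 to 1248, and the 3 genes together summed to between 19719 and 28213 TPM. Next came Lypd8, a surface protein that binds flagella and keeps bacteria off the epithelium, at 12555 TPM in control 6 to 19546 TPM in control 5. Their SDs of 0.21 and 0.24 lay somewhat above the median of 0.19 for genes at 1000 TPM or more.

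Several of the next genes were also products of the mucosal surface. Zg16, a lectin of goblet cell mucus, averaged 6399 TPM and Agr2, the disulfide isomerase that folds mucins, 4035 TPM. Lgals4, a galectin of the enterocyte surface, averaged 3893 TPM, Dmbt1, a secreted scavenger receptor, 3302 TPM, and Krt8, the keratin of simple epithelia, 3313 TPM. Ceacam1, an adhesion receptor, was the steadiest of the 15 leading nuclear genes, at 3167 to 3597 TPM with an SD of 0.06.

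Antibody genes ranked beside them. Igkc, the kappa light chain, averaged 6849 TPM and Igha, the heavy chain of IgA, 5782 TPM. Igkc was lowest in control 3 (3406 TPM) and at 5463 to 8871 TPM in the other 5 mice. Igha was also lowest in control 3, at 3024 TPM against 4781 to 7643 TPM. Eef1a1, a translation factor (6989 TPM), B2m, the light chain of MHC class I (4074 TPM), Fth1, the ferritin heavy chain (3173 TPM), and Plac8 (3062 TPM) completed the group with Reg3b.

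Reg3b was the one gene of these 15 with an SD above 1. It stood at 2237, 1445, 6361, 5558, 1209 and 5034 TPM in controls 1 to 6. Controls 3, 4 and 6 were thus high and controls 1, 2 and 5 low, with no values between 2237 and 5034 TPM. Its neighbour in function, Reg3g, which binds the wall of Gram-positive bacteria, showed the same division, at 938 to 1107 TPM in controls 3, 4 and 6 and 307 to 461 TPM in the others. The pancreas also makes lectins of the Reg family, and controls 3, 4 and 6 were the 3 mice with the most acinar RNA. Acinar genes summed to 6039, 12456 and 91506 TPM in controls 3, 4 and 6, where Reg3b was at 6361, 5558 and 5034 TPM. The part of acinar RNA in the Reg3 values was not tested.

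**Figure D2:**
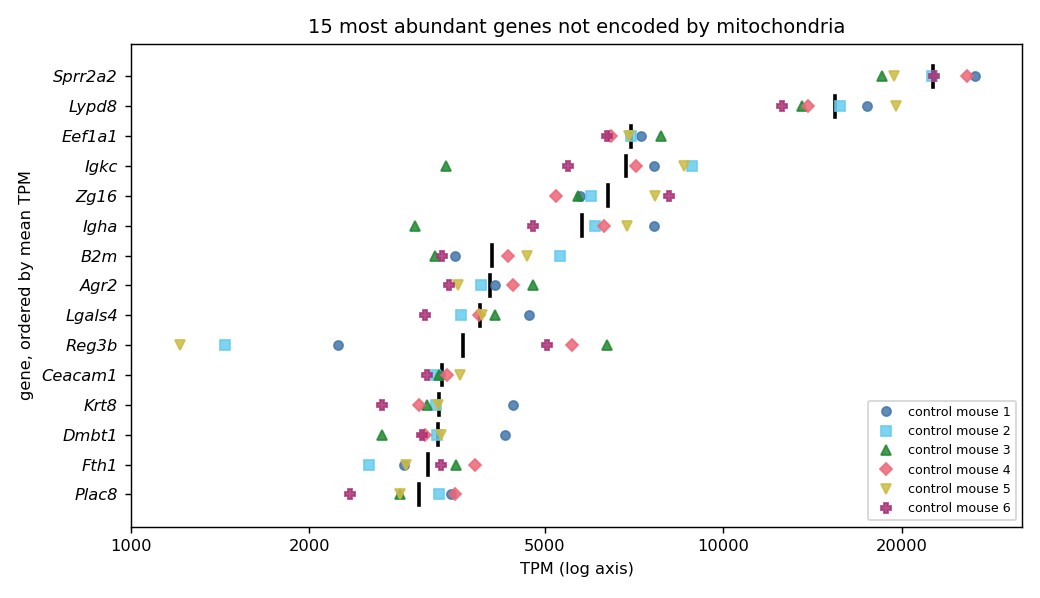
TPM of the 15 most abundant genes that are not mitochondrially encoded, one row per gene on a log axis. Points are the 6 control mice and vertical bars their means; Reg3b separates into mice at 1209 to 2237 TPM and mice at 5034 to 6361 TPM, whereas Ceacam1 stays between 3167 and 3597 TPM.

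Marker lists were used to describe each tissue compartment. The level of a list is the mean of log2(TPM + 1) over its members, so it is read between mice and not between lists of different genes. The plot of list levels shows them by mouse, leaving out the acinar, mitochondrial and reference lists.

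General epithelial genes were high in every mouse, with a median SD of 0.182 over list members, close to the 0.185 of all 8604 genes. All 15 members of the pan-epithelial list reached 10 TPM, and the list level ran from 9.03 in control 6 to 9.48 in control 1. Epcam, the adhesion molecule of epithelia, lay at 1328 to 1742 TPM and Cdh1, E-cadherin, at 443 to 598 TPM. Of the 15 members, 11 were highest in control 1, the library with the GC trend, as were 38.8% of all 8604 genes.

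Absorptive colonocyte genes held their list level within 7.48 to 7.76 while single members moved in opposite ways. Car1, the carbonic anhydrase of the colon surface, was at 4319 TPM in control 3 and between 980 and 2095 TPM in the others. Aqp8, a water channel, was highest in control 5 (809 TPM), the mouse in which Car1 was lowest, and lay at 325 to 485 TPM elsewhere. Slc26a3, the chloride exchanger that is lost in congenital chloride diarrhoea, was at 145 TPM in control 6, 256 to 286 TPM in controls 1 to 4 and 421 TPM in control 5. Slc37a2 had the widest spread of the list, at 5.96 to 8.98 TPM in controls 3, 4 and 6 and 23.8 to 31.3 TPM in controls 1, 2 and 5, which is the reverse of the division seen for Reg3b.

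Goblet cell genes had a level of 8.24 to 8.51. Muc2, the gel-forming mucin of the colon, was at 661 TPM in control 4 and 940 to 1068 TPM in the other 5 mice. Clca1, a protease of the mucus, ranged from 791 TPM in control 4 to 1602 TPM in control 5, and Fcgbp, which binds to Muc2, from 344 to 523 TPM. Reg4 spread most in this list, with 76.9 TPM in control 6 and 210 TPM in control 3.

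Crypt genes covered a wide range of levels, with 9 of 15 members at a mean of 10 TPM or more. The highest were Slc12a2, an ion cotransporter, at 71.2 to 127 TPM, Lrig1, a brake on growth factor receptors, at 38.2 to 61.6 TPM, and Cd44, a receptor for hyaluronan, at 31.3 to 47.7 TPM. Lgr5, the receptor that marks cycling stem cells, was at 4.95 TPM in control 3 and lowest in controls 4 and 5, and Ascl2, a transcription factor of the same cells, was at 1.73 to 3.43 TPM. Smoc2 lay between, at 20.9 to 37.6 TPM. Axin2, a target of Wnt signalling, was at 7.13 TPM in control 4 and at 11.6 to 13.9 TPM in the other 5.

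Genes of dividing cells set control 5 apart. The level of the 18-gene list was 4.50 in control 5 and 5.27 to 5.79 in the other mice, and its SD fell from 0.46 to 0.22 without that mouse. Ccna2, a cyclin of S phase and G2, was at 18.7 TPM in control 5 and 37.3 to 65.4 TPM in the others. Ccnb1, the mitotic cyclin, was at 12.0 against 22.2 to 42.3 TPM. Mki67 was at 18.9 against 25.9 to 58.5 TPM, and Top2a at 23.9 against 44.9 to 71.6 TPM. All 18 members of the list were lowest in control 5, as were 25.5% of the 8604 genes. Control 1, the library with the GC trend, was the next lowest for Mki67.

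Hormone-producing cells gave peptides of the distal gut. Pyy (217 TPM on average), Gcg (151 TPM) and Insl5 (145 TPM) led the list. Insl5, a peptide of colonic L cells, was at 266 TPM in control 5 and at 113 to 128 TPM in the other 5, and Pyy was at 346 against 184 to 200 TPM. Chga and Chgb, which package hormones into granules, did not share that division: Chga was highest in control 1 (45.7 TPM) and Chgb in control 3 (75.9 TPM). Tuft cell genes were low, with Pou2f3, their master regulator, at 0.275 to 0.859 TPM.

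Genes of repairing epithelium were highest in control 4, at a list level of 5.87, and lowest in control 3, at 5.05. Ly6a, the Sca-1 antigen that appears on regenerating crypts, was at 1427 to 2761 TPM. Anxa1 was at 243 to 422 TPM and Clu, a marker of revival stem cells, at 38.5 to 112 TPM. Ereg, a growth factor for epithelium, stood at 72.3 and 59.7 TPM in controls 4 and 6 and at 10.6 to 18.3 TPM in the other 4 mice.

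Markers of tissues that border the colon were checked for what the dissection had included. Squamous genes of the anal margin were nearly absent: Krt5 reached 0.523 TPM at most and Trp63 0.148 TPM. Krt14 reached 1.81 TPM at most. The only one of the 15 squamous members at a mean of 10 TPM was Sprr1a, at 40.2 to 90.4 TPM, which injured simple epithelium also makes. Of small intestine genes, Apoa1 was at 0 to 0.403 TPM, whereas Fabp2, also made in the colon, was at 176 to 313 TPM. In all, 6 of the 15 small intestine members reached a mean of 10 TPM, among them Alpi, intestinal alkaline phosphatase, at 8.90 to 32.7 TPM, Apob at 14.1 to 25.8 TPM and Ang4 at 11.6 to 72.4 TPM. Alb, a defining liver gene, reached 1.85 TPM at most, and Myh4 of skeletal muscle 0.0190 TPM. Ttr, another defining liver gene, was at 3.41 to 14.8 TPM. The highest of the 8 liver members was Tat, at 19.2 to 38.2 TPM, and of the 14 skeletal muscle members Acta1, at 7.59 to 19.0 TPM. A mean of 10 TPM was reached by 2 of the 8 liver and 1 of the 14 skeletal muscle members.

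Acinar genes of the pancreas supplied all 20 of the most variable named genes. The 38 genes, a list chosen after the values were seen, summed to 340.1, 448.4, 6039, 12456, 2171 and 91506 TPM in controls 1 to 6. Ctrb1, the precursor of chymotrypsin, stood at 0.779, 24.1, 519, 1768, 322 and 8588 TPM. Prss2, a trypsinogen, ran from 0.140 to 4918 TPM, and Pnlip, pancreatic lipase, from 0.0770 to 4118 TPM. The mice kept one order for these 3 genes: control 6 highest, then 4, 3, 5, 2 and 1. Amy2a2, Amy2a3 and Amy2a4 carried identical counts in every mouse, so these amylase copies cannot be told apart. Zg16, Sycn and Cela1 stayed high in the mice with the least acinar RNA: in control 1 Cela1 was at 125 TPM and Sycn at 192 TPM. The colon makes Zg16 itself. How much of the 340.1 TPM in control 1 came from acinar cells was not tested.

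**Figure D3:**
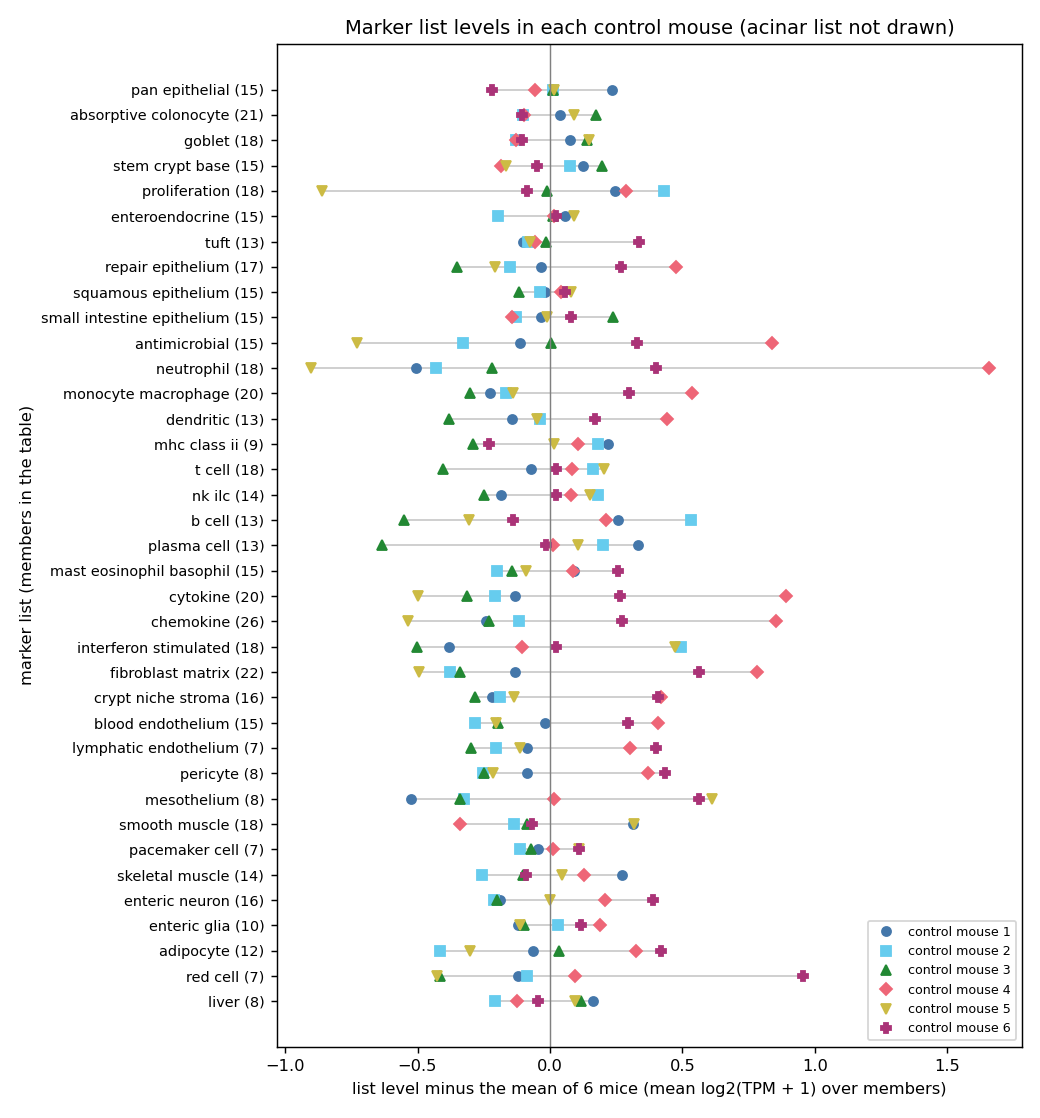
Level of each marker list in each control mouse, as the mean of log2(TPM + 1) over members minus the mean of the 6 mice; points are mice, grey lines span the range, and numbers in brackets are members in the table. The neutrophil list spans 2.56 log2 units with control 4 highest, and the pan-epithelial list 0.45.

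Neutrophil genes had the widest range of the immune lists. The level was 2.61, 2.69, 2.90, 4.77, 2.21 and 3.52 in controls 1 to 6, and 17 of the 18 members were highest in control 4, against 18.6% of the 8604 genes. Only 6 of the 18 had a mean of at least 10 TPM, the limit set for the 8604. S100a9, the partner of S100a8 in calprotectin, was at 58.2, 73.5, 115, 616, 29.6 and 181 TPM. Csf3r, the receptor for the neutrophil growth factor, was at 24.8 TPM in control 4, 13.2 TPM in control 6 and 4.24 to 8.37 TPM elsewhere. Control 4 was high, control 6 second and control 5 lowest for these genes. Without control 4 the SD of the list level fell from 0.92 to 0.48. Ly6g was also highest in control 4, at 348 TPM, but next in control 1, at 231 TPM, and lowest in control 3, at 136 TPM. It belongs to a family of similar genes, so its value is uncertain.

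Cytokines and chemokines ran in the same order at the ends. Of 20 cytokine genes 15 were highest in control 4, as were 17 of 26 chemokine genes, beside the same 18.6% of all genes. A mean of 10 TPM, the limit set for that share, was reached by 7 of the 20 and 18 of the 26. Both list levels were lowest in control 5, where 25.5% of all genes were lowest. Il1b, the cytokine released by inflammasomes, was at 200 TPM in control 4 and 28.8 to 92.1 TPM elsewhere. Il6 was at 25.8 TPM in control 4 and 1.99 to 8.32 TPM elsewhere. Ccl2, which draws monocytes, was at 103 TPM against 8.36 to 18.4 TPM. Tnf differed less, at 9.50 to 20.8 TPM, and Ccl6 was at 404 to 552 TPM with its lowest value in control 4. Without control 4 the SD of the list level fell from 0.50 to 0.28 for cytokines and from 0.49 to 0.29 for chemokines.

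Macrophage genes differed less than neutrophil genes. Their list level ran from 4.76 in control 3 to 5.60 in control 4. Lyz2, lysozyme of myeloid cells, was at 527 to 1030 TPM, C1qa, a complement component made by resident macrophages, at 144 to 234 TPM, and Adgre1, the F4/80 antigen, at 16.0 to 23.0 TPM. Chil3, of alternatively activated and newly arrived cells, had the largest spread, with 45.4 TPM in control 4 and 4.52 to 12.9 TPM in the others.

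Lymphocyte genes were lowest in control 3. The B cell list stood at 1.70 there and at 1.95 to 2.79 in the other mice, and the plasma cell list at 5.93 against 6.55 to 6.89. Cd79a, part of the B cell receptor, was at 10.3 TPM in control 3 and 13.7 to 26.9 TPM elsewhere. Jchain, which joins IgA into dimers, was at 723 TPM against 1234 to 1677 TPM. T cell genes were also lowest in control 3 (2.15 against 2.48 to 2.75), but Cd3e was not, since its lowest value of 3.51 TPM was in control 1. MHC class II genes were high in every mouse, with Cd74, the invariant chain, at 1448 to 2216 TPM.

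Heavy chain genes of IgG2 had more spread than that of IgA. Ighg2b stood at 366, 806, 81.7, 205, 778 and 183 TPM and Ighg2c at 428, 957, 129, 395, 972 and 171 TPM. Controls 2 and 5 were highest for both and control 3 lowest. The variable segments of antibodies and T cell receptors, which differ by clone, made up 62 of the 131 genes with an SD above 1. In all, 113 receptor segments reached a mean of 10 TPM.

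The same mice, controls 2 and 5, led the genes induced by interferon. The list level was 6.92 and 6.90 in these mice and 5.92 to 6.45 in the other 4. Isg15, a ubiquitin-like protein, was at 226 and 311 TPM against 97.5 to 172 TPM. Ifit1, which binds foreign RNA, was at 15.4, 132, 72.5, 69.0, 144 and 97.7 TPM. Its value in control 1 was far below the rest, and without that mouse its SD fell from 1.15 to 0.48. The list level was lowest in control 3, at 5.92, and 10 of the 18 members were lowest there, against 9.77% of all genes. Control 1 was the lowest for 4 of the 18 members, against 16.9% of all genes. For Ifit2, control 1 stood at 57.9 TPM against 89.0 to 205 TPM. Outside the list, Samd9l and Ddx60, chosen after their values were seen, were also lowest in control 1, at 24.0 and 12.7 TPM against 64.7 to 123 and 20.1 to 62.4 TPM. It was not lowest for Isg15, at 121 TPM, or Irf7, at 220 TPM.

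Fibroblast and matrix genes were high in controls 4 and 6, at list levels of 7.06 and 6.84 against 5.79 to 6.15 in the other mice. All 22 members reached their highest value in one of these 2 mice, as did 25.4% of all genes. Dcn, a proteoglycan of the matrix, was at 983 and 1049 TPM against 366 to 481 TPM, and Col3a1, a fibrillar collagen, at 828 and 798 TPM against 374 to 529 TPM. Mmp3, stromelysin, had the largest spread of the list, at 351 TPM in control 4, 126 TPM in control 6 and 10.5 to 49.1 TPM in the others. Controls 4 and 6 were also the mice with the most acinar RNA.

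Other stromal lists had the same 2 mice on top. Grem1, the BMP antagonist made below the crypts, was at 258 and 207 TPM in controls 4 and 6 and 53.9 to 127 TPM elsewhere. Blood endothelium stood at 4.13 and 4.02 against 3.44 to 3.70, lymphatic endothelium at 4.36 and 4.46 against 3.76 to 3.97, and pericytes at 3.87 and 3.93 against 3.25 to 3.41. Rgs5, of pericytes, was at 203 TPM in control 6 and 50.6 TPM in control 1. In none of these 3 lists did controls 4 and 6 overlap the other mice. How many of all 8604 genes share that was not counted, so the lack of overlap has no share beside it. By a looser rule, 25.4% of the 8604 genes were highest in one of these 2 mice. The division was not confined to stroma. Enteric neurons stood at 3.53 and 3.71 in controls 4 and 6 against 3.11 to 3.32. Adipocyte genes stood at 3.26 and 3.35 against 2.52 to 2.96, and macrophage genes at 5.60 and 5.36 against 4.76 to 4.92.

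Smooth muscle genes did not share that division: they were highest in controls 1 and 5 (7.18 and 7.19) and lowest in control 4 (6.53). Actg2, the actin of visceral muscle, was at 711, 394, 467, 282, 803 and 258 TPM. Myh11, its myosin, was at 185 and 184 TPM in controls 1 and 5 and 106 to 141 TPM in the others. Pacemaker cell genes kept to 3.73 to 3.95, with Ano1, the chloride channel of these cells, at 32.5 to 55.6 TPM.

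The last lists covered nerves, the outer lining, blood and fat. Enteric neuron genes ran from 3.11 to 3.71, with Vip, a relaxing neuropeptide, at 39.1 to 96.0 TPM, and glial genes from 1.92 to 2.23, with Sox10 at 1.69 to 2.98 TPM. Mesothelial genes were highest in controls 5 and 6: Upk3b was at 4.65 and 4.49 TPM in them and 0.323 to 1.08 TPM elsewhere. All 7 red cell genes were highest in control 6, as were 6.79% of all genes, with Hbb-bs at 754 TPM against 222 to 376 TPM. Of the 7, 4 reached the mean of 10 TPM set for that share. Haemoglobin copies share sequence, so the division between them is uncertain. Adipocyte genes ran from 2.52 to 3.35, with Adipoq at 4.73 to 13.4 TPM.

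Over all 8604 genes the median SD was 0.18, whereas counting error alone would give a median of 0.051. The median gene therefore varied by 1.14-fold per SD. Only 131 genes (1.52%) had an SD above 1, and 2737 (31.8%) had one under 0.15. The 131 comprised 34 acinar genes, 62 receptor segments, 1 predicted gene and 34 others.

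Among those 34, 25 were highest in control 4 and 20 lowest in control 5, against 18.6% and 25.5% of all 8604 genes. The genes of this group named next were singled out after their values were seen. Saa3, an acute-phase protein, was at 230, 152, 253, 1029, 58.5 and 681 TPM. Mmp13, a collagenase, was at 22.7, 28.7, 40.3, 266, 12.1 and 75.3 TPM, and Mmp10 at 46.3, 46.5, 49.0, 278, 27.1 and 134 TPM. Lcn2, which withholds iron from bacteria, was at 265 TPM in control 4 and 23.2 TPM in control 5, and Cxcl1 at 55.1 and 2.63 TPM. Control 4 was highest, control 6 second and control 5 lowest for each of these genes. Without control 4, 12 of the 34 kept an SD above 1, and without control 5, 22 did. Prr14l passed an SD of 1 on the TPM scale only: on TMM-scaled counts its SD was 0.11.

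**Figure D4:**
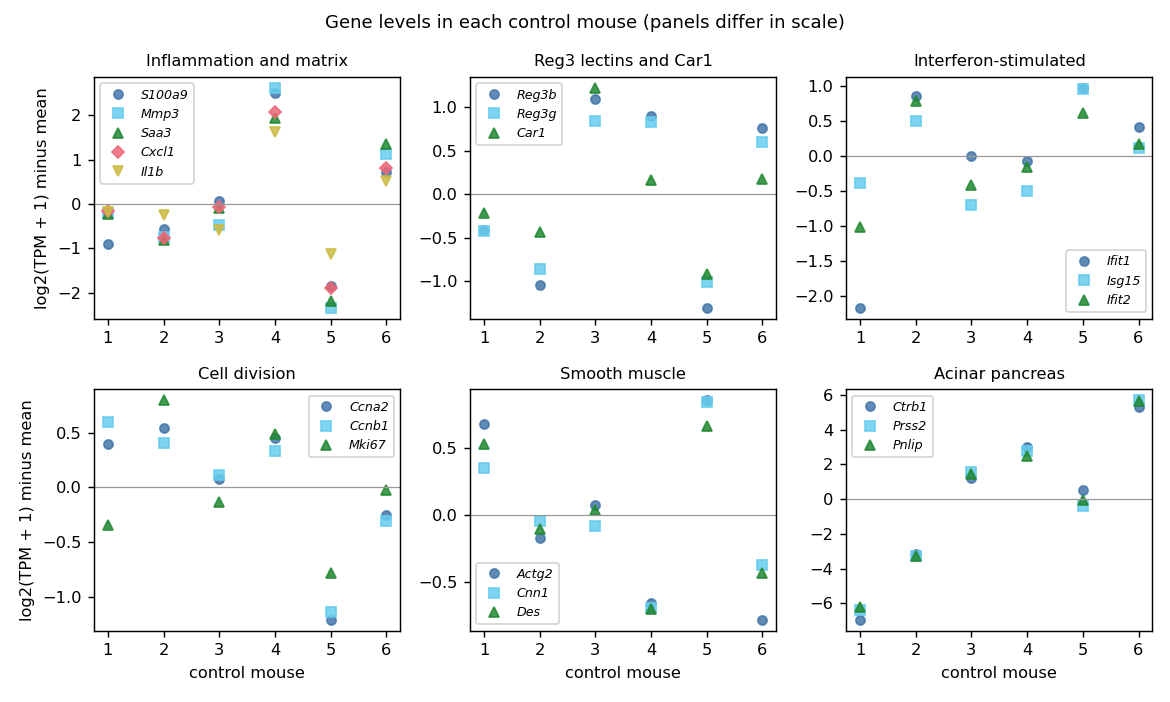
Level of named genes in each control mouse, as log2(TPM + 1) minus the mean of the 6 mice; colours and symbols are genes, and panels differ in scale. Inflammatory genes are highest in control 4 and lowest in control 5, interferon-stimulated genes are high in controls 2 and 5, and acinar genes are lowest in control 1 and highest in control 6.

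A principal component analysis put the mice in the order of their acinar RNA first. The first component held 55.9% of the variance, and its 10 strongest negative loadings were all acinar genes, led by Amy2a1. Its 10 strongest positive loadings were antibody segments. Without acinar genes and receptor segments the first component held 40.1% and the second 29.1%. On the first, controls 4 and 6 scored 21.3 and 16.2, and the others -16.7 to -1.25. On the second, control 1 scored 21.6 and control 5 -18.1, with the other 4 between -7.02 and 5.28.

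At the other end, the 20 least variable named genes had SDs of 0.022 to 0.040. Rab14 was at 93.5, 94.0, 94.7, 95.0, 93.0 and 90.1 TPM. Fyco1, which links vesicles to kinesin, was at 13.2 to 13.9 TPM, and Stk24, a kinase, at 55.9 to 58.5 TPM. Tmco1 was at 86.9 to 91.4 TPM and Ythdf2 at 20.7 to 22.0 TPM. Rab1a, a GTPase of transport between the endoplasmic reticulum and the Golgi, was at 172 to 184 TPM, and Ncor1, a transcriptional corepressor, at 80.1 to 86.0 TPM. App, the amyloid precursor protein, was at 255 to 273 TPM. For 12 of the 20 the SD was below the counting error computed for their depth, so their order is not resolved at this depth. On TMM-scaled counts none of the 20 stayed among the 20 lowest, but all 20 kept an SD of at most 0.13.

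Genes that are often used as references covered a wide range of spread. Of 20, 13 lay below the median SD of all genes and 5 under 0.15, where 31.8% of all 8604 genes lay. Their median SD was 0.171, against 0.185 for all these genes. Ywhaz (0.07), Hprt (0.10), Ppib (0.11) and Gusb (0.12) were among the steadiest. Gapdh was at 2031 to 2864 TPM (SD 0.18) and Actb at 1574 to 2478 TPM (SD 0.27). B2m reached 0.29, Tubb5, which rises in dividing cells and was lowest in control 5, 0.34, and Tfrc, the transferrin receptor, 0.47.

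**Figure D5:**
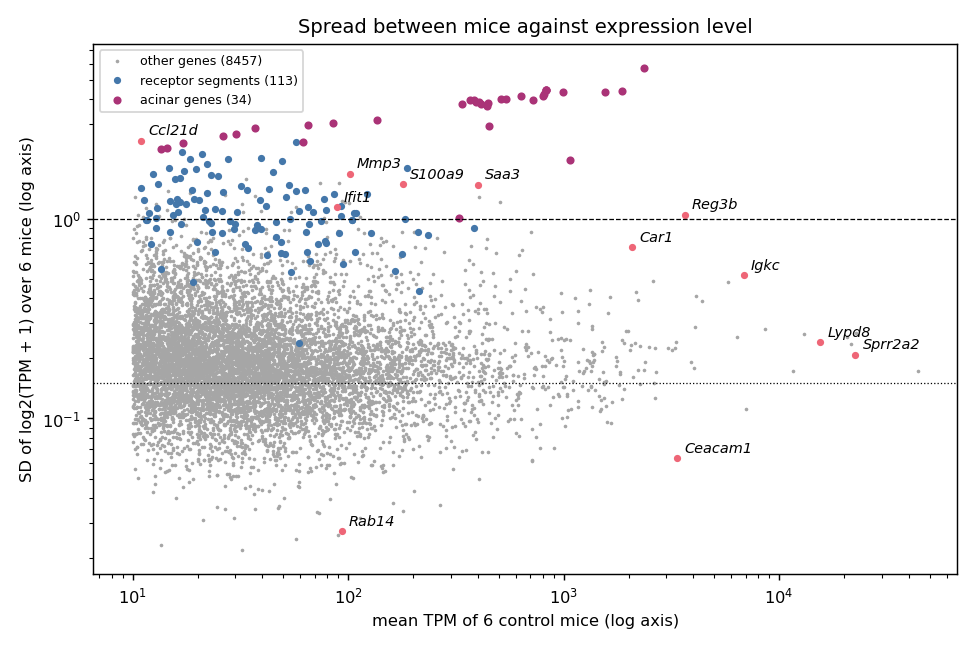
SD of log2(TPM + 1) over the 6 control mice against mean TPM for 8604 genes, both on log axes; the dashed line marks an SD of 1 and the dotted line 0.15. Of 131 genes above the dashed line, 34 are acinar genes and 62 receptor segments, and Ceacam1 has the smallest spread of the labelled genes above 1000 TPM.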

How the data were processed

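Colon RNA of 12 mice was sequenced, and the 6 control libraries were described here. Per the labels' protocols, Trizol was used for extraction and the SMARTER mRNA-Seq kit for library preparation. Per the file headers, the authors deposited whole-number read counts per gene and TPM per library in one table of 21899 genes. The submitters' processing notes list GRCm38, mm10 and mm39 without roles; aligner, counter and strand use are not given in the sources used. The authors also deposited mean TPM, log2 fold changes and p-values, which were not used.

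Levels and spread were computed from the deposited TPM with a pseudocount of 1 (Python 3.11.15, numpy 2.4.6). TMM factors and dispersions came from the counts with edgeR 4.0.16, and size factors from DESeq2 1.42.0, in R 4.3.3. Genes were named by a rule: Pck1, the 15 most abundant nuclear genes, the 20 most and 20 least variable, for each of 40 lists its defining, highest and most variable members, the reference genes, and the 10 strongest loadings per sign. Other genes named were chosen after their values were seen, as was the list of 38 acinar genes. The mice, lists and rules were chosen with earlier results of these data known. Of 579 list genes, 575 were in the table. Promoters were RefSeq's, and genes with more than 1 entry were left out of their counts. No libraries were alike within counting noise (lowest chi-square per gene 18.8). The spread and GC steps were checked on simulated data. No test between groups was made.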

Additional observations from a re-analysis of the deposited data

Results flagged for a closer look

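Levels of 40 lists and 226 named genes were screened for a mouse far from the other 5 by Dixon's ratio, the gap to the nearest mouse over the whole range, at the 95% limit. Chance passes about 1 in 20, and 16 of 266 (6.02%) passed, so the screen as a whole gave little more than that share. Control 5 stood apart for Insl5 (0.857), Pyy (0.872) and Tubb5 (0.630). Control 4 stood apart for Axin2 (0.724), Ccl2 (0.696) and Muc2 (0.733). Control 1 stood apart for the level of the mitochondrially encoded list (0.636), mt-Cytb (0.667), mt-Nd3 (0.778) and Ifit1 (0.666); mt-Nd3 was at 1269 TPM in it and 2570 to 3144 TPM in the others. Control 1 also carried the GC trend, whose part in these 4 was not tested. Control 3 stood apart for the plasma cell list (0.640), Jchain (0.636) and Ccser1 (0.724), control 6 for the tuft cell list (0.803) and Ang4 (0.632), and control 2 for the enteroendocrine list (0.725). Ang4, an antimicrobial ribonuclease, was at 72.4 TPM in control 6 and 11.6 to 23.2 TPM elsewhere.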

How the results depend on the processing

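The number of genes at 1 TPM stayed within 1.5 times under every setting tried, as did the median spread. The 100 most abundant genes took 26.2% of counts and, without mitochondrially encoded genes, 27.7% of TPM. Variable genes numbered 209 with a mean of at least 1 TPM, 209 with no filter, 62 with at least 50 TPM and 35 without acinar genes and receptor segments. Stable genes numbered 5893 with no filter, 990 with at least 50 TPM and 4186 with the GC trend removed, and 2542 to 4122 with 1 mouse left out, the highest without control 1. The first component held 37.2% without acinar genes. Of the 20 most variable named genes, 16 were shared by edgeR's tagwise dispersion. After filterByExpr only 1 was shared: that filter asks for enough counts in all 6 mice and removed 19 of the 20 beforehand. Without acinar genes 0 were shared, since all 20 are acinar. Of the 20 least variable, 0 were shared on TMM counts, by edgeR dispersion with or without that filter, and with the GC trend removed, 3 without acinar genes, and 4 to 12 with 1 mouse left out, so single names at that end depend on the scaling. Of 40 lists, 34 kept the same highest mouse and 31 the same lowest on TMM counts; the interferon-stimulated list moved its highest mouse from control 2 to control 5. The settings that remove the GC trend, acinar genes or receptor segments, and the filtered dispersion, were chosen after seeing the data. No paired analysis was possible because only control mice were described and no test between groups was made.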

Other observations

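A few genes were present in some mice and without a count in others. The search covered genes with a mean of at least 1 TPM and left out acinar genes and receptor segments. It found 8 with 0 counts in at least 1 mouse and at least 20 in every other mouse, 4 of them predicted genes. Commd1b had 0 counts in controls 1 to 3 and 123, 124 and 145 in controls 4 to 6. Zfp968 had 815 counts in control 2, 108 in control 3, 165 in control 6 and 0 in the others. Ccl21d, a copy of the chemokine that guides cells into lymphatic vessels, had 545 counts in control 5 and 0 in the other 5 mice, whereas Ccl21a was at 277 to 531 TPM in every mouse. These genes have close copies, and how reads were divided among them was not tested.

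Myoglobin showed 2 levels as well. Mb was at 8.59, 9.51 and 4.44 TPM in controls 1, 4 and 5 and at 0.131 to 0.394 TPM in controls 2, 3 and 6, while Myh4 was at or near 0 in every mouse. Hoxb13, a transcription factor of the most distal colon, was at 121, 76.0, 72.9, 51.5, 120 and 28.1 TPM in controls 1 to 6. Controls 1 and 5, which were highest for it, were also highest for smooth muscle genes. Where along the colon the tissue was cut is not given in the sources used here. Its part in these values was not tested, and Hoxb13 was chosen after its values were seen.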
